A study of Cyprinodon variegatus with 4 samples.

Results

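Antioxidant and redox enzymes of sheepshead minnow larvae are described here across 4 RNA libraries. They are the contigs whose protein description opens with superoxide dismutase, catalase, glutathione peroxidase (also the phospholipid hydroperoxide form), peroxiredoxin, thioredoxin, glutaredoxin, heme oxygenase, metallothionein, glutamate-cysteine ligase, glutathione reductase, NAD(P)H dehydrogenase, selenoprotein or sulfiredoxin. The rule found 83 of the 24404 annotated contigs, which carry 43 of 9609 protein names. Metallothionein matched 0 contigs and was not analysed here.

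The groups were whole larvae of Cyprinodon variegatus, a small estuarine fish, kept with polyethylene terephthalate (PET) microfibres at 100 mg/L, with PET microfibres at 10 mg/L, with Tween 80 at 0.001% (the surfactant control), or untreated (the control). Exposure lasted 10 days, and the labels give the stage as 72 h after fertilization. The labels of single samples do not say if Tween 80 was in the fibre treatments too. Each group is 1 library, so no difference below has a replicate check, no test was possible, and every statement compares libraries, not conditions.

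These enzymes keep reactive oxygen and oxidised thiols low. Superoxide dismutases turn superoxide into hydrogen peroxide, and catalase, glutathione peroxidases and peroxiredoxins remove peroxides. Glutathione peroxidases draw on glutathione and peroxiredoxins mostly on thioredoxin, and reductases restore both with NADPH. In vertebrates several of them hold selenocysteine, and the transcription factor NRF2, restrained by KEAP1, raises many of them under oxidative stress.

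Levels are in FPKM, a fragment count corrected for contig length and library size, summed over the contigs of a name. Library totals lay between 1039707 and 1080208 FPKM, and annotated contigs held between 42.7% and 43.2% of them. A low level of a name can therefore mean that the main transcript carries no annotation. Read counts were not used here and absolute depth is unknown. The commonest ratio of low values put depth at 79.0% of the control for PET 100 mg/L, 84.0% for PET 10 mg/L and 78.3% for the surfactant control. The 5 lists of tissue markers (liver, red blood cells, muscle, pancreas, epidermis) were all present. In RNA of whole larvae, fewer cells of a type and less RNA per cell cannot be told apart.

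Together the 43 names held 2109 FPKM at PET 100 mg/L, 2030 at PET 10 mg/L, 1973 in the surfactant control and 1863 in the control. As a share of annotated FPKM this came to 0.464%, 0.440%, 0.429% and 0.416%, in the same order of libraries. One enzyme, the phospholipid hydroperoxide glutathione peroxidase GPX4, accounted for 36.04% of the members' FPKM at PET 100 mg/L, 36.03% at PET 10 mg/L, 33.8% in the surfactant control and 31.6% in the control. Without it the sums were 1349, 1299, 1307 and 1274 FPKM, a narrower range.

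Of the 43 names, 28 averaged 1 FPKM or more across libraries and passed the filter. Of these, 19 had a mean of at least 10 FPKM and 5 of at least 100. The other 15 names were under 1 FPKM, and 11 of them were listed at 0 in at least 1 library. Peroxiredoxin-6 was listed at 0 in all 4. An exact 0 in such a table can be a failed estimate of a contig's share, so such names are described as listed at 0, and no fold is given against them. The levels plot shows the order of the 28 names.

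**Figure D1:**
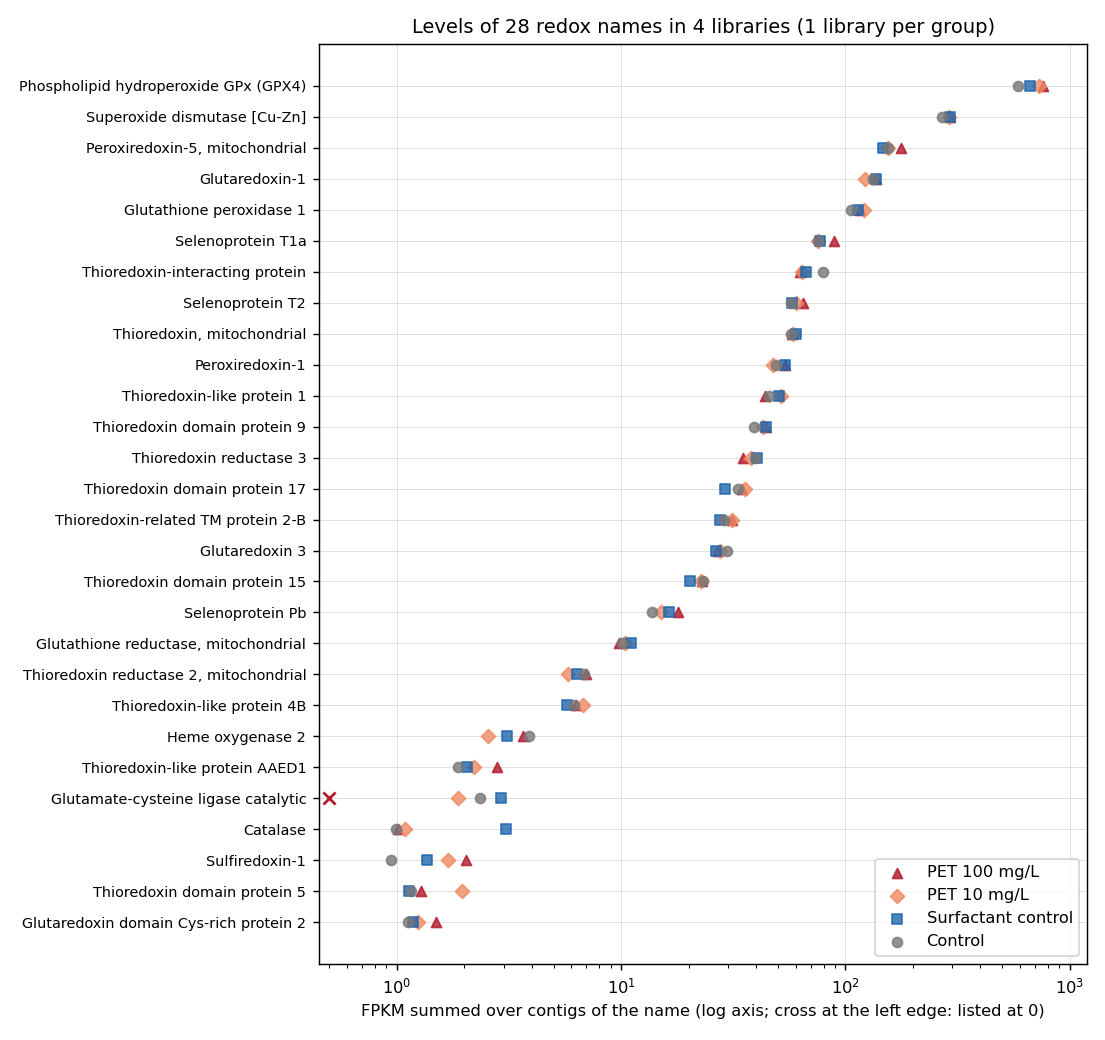
FPKM of the 28 redox names with a mean of at least 1 FPKM, on a log axis, with 1 symbol per library and a cross where a name is listed at 0. The symbols of a name lie close together for the upper 19 names and spread for the lowest ones, and GPX4 tops the order at 760.2, 731, 666 and 589.5 FPKM in PET 100 mg/L, PET 10 mg/L, surfactant control and control.

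At the level of single names, the well-expressed redox enzymes were close to equal in all 4 libraries. Over the 19 names with at least 10 FPKM, the highest library exceeded the lowest by a median of 1.13-fold, and by between 1.05-fold (mitochondrial thioredoxin) and 1.30-fold (selenoprotein Pb). Over all 2686 names at that level the median was 1.17-fold and the largest 32.2-fold. PET 100 mg/L was the highest library for 8 of the 19, against 41 percent of all names at that level, so this share was near the background.

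**Figure D2:**
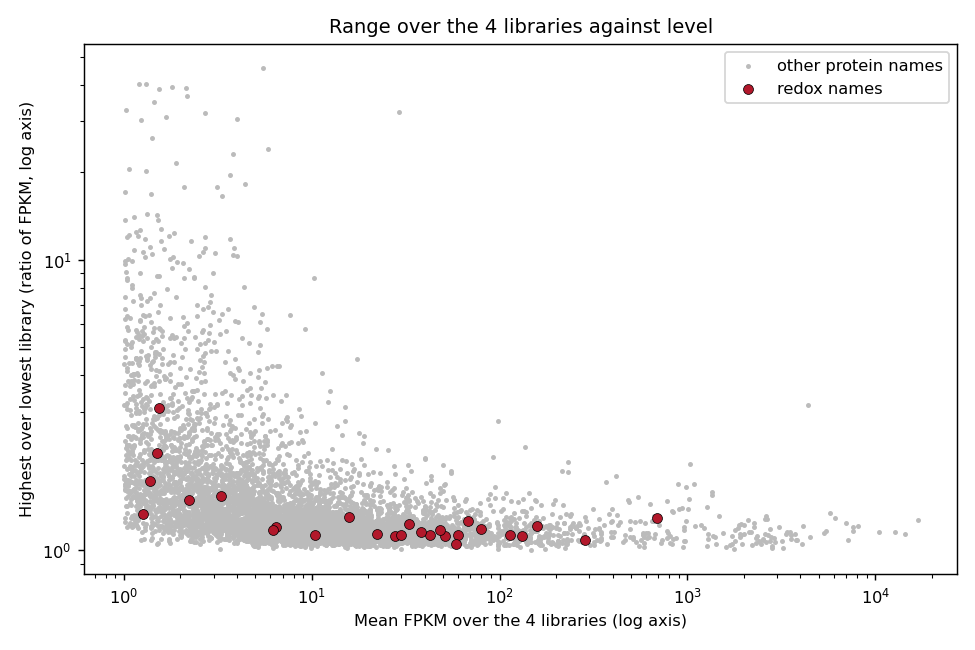
Highest over lowest library (ratio of FPKM, log axis) against mean FPKM (log axis) for protein names with a mean of at least 1 FPKM and no library at 0; red points are the 27 redox names that qualify, and grey points the other names. Redox names lie within the cloud: above 10 FPKM they reach 1.30-fold, and the widest, catalase at 3.09-fold, has a mean of 1.54 FPKM.

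Superoxide dismutase was represented almost wholly by the copper-zinc enzyme of the cytosol (sod1), the second highest member. Its level was 293 FPKM at PET 100 mg/L, 288 at PET 10 mg/L, 293 in the surfactant control and 269 in the control. The control was the lowest, and the other 3 libraries were close together. The mitochondrial manganese enzyme (SOD2) was listed at 0 at PET 100 mg/L and at 0.72, 0.63 and 0.77 FPKM in PET 10 mg/L, surfactant control and control, under the filter.

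Catalase, the peroxisomal enzyme that splits hydrogen peroxide, stood at 1.01 FPKM at PET 100 mg/L, 1.09 at PET 10 mg/L, 3.06 in the surfactant control and 0.99 in the control. The surfactant control alone was high, and both PET libraries were near the control. Of its 3.06 FPKM there, 1.60 came from a contig (TR2176|c0_g1_i1) listed at 0 in the other 3 libraries. The log2 ratio to the surfactant control was -1.24 at PET 100 mg/L and -1.16 at PET 10 mg/L; to the untreated control it was 0.02 and 0.09. By its mean level it ranked 5868 of 9609 names.

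Glutathione peroxidases were the largest group, at 877 FPKM at PET 100 mg/L, 852 at PET 10 mg/L, 780.4 in the surfactant control and 697 in the control. GPX4, which reduces lipid peroxides within membranes and is known for its part in holding off ferroptosis, ranked 113 of all names. Its levels of 760.2, 731, 666 and 589.5 FPKM descended in the order PET 100 mg/L, PET 10 mg/L, surfactant control, control. The log2 ratio to the surfactant control was 0.19 at PET 100 mg/L and 0.13 at PET 10 mg/L, and that of the surfactant control to the control was 0.18. In FPKM as deposited, the step between the libraries without fibres was thus nearly as large as the step from surfactant control to PET 100 mg/L. With median-of-ratios scaling of the libraries, the ratios to the surfactant control were 0.104 at PET 100 mg/L and 0.106 at PET 10 mg/L. The order of the PET libraries in GPX4 thus depended on the scaling.

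The descending order in FPKM held in 2 of the 3 contigs that make up GPX4. TR82730|c1_g1_i1 was at 406, 404, 379 and 347 FPKM in PET 100 mg/L, PET 10 mg/L, surfactant control and control. TR95930|c1_g1_i2 was at 184, 149, 135 and 114 FPKM in the same order. In TR95930|c1_g1_i1 the PET libraries changed places, at 170.3 and 177 FPKM, against 152 and 128 FPKM in surfactant control and control. All 3 contigs were higher in both PET libraries than in both libraries without fibres. A further contig was at 1.27 FPKM at PET 10 mg/L and listed at 0 elsewhere.

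**Figure D3:**
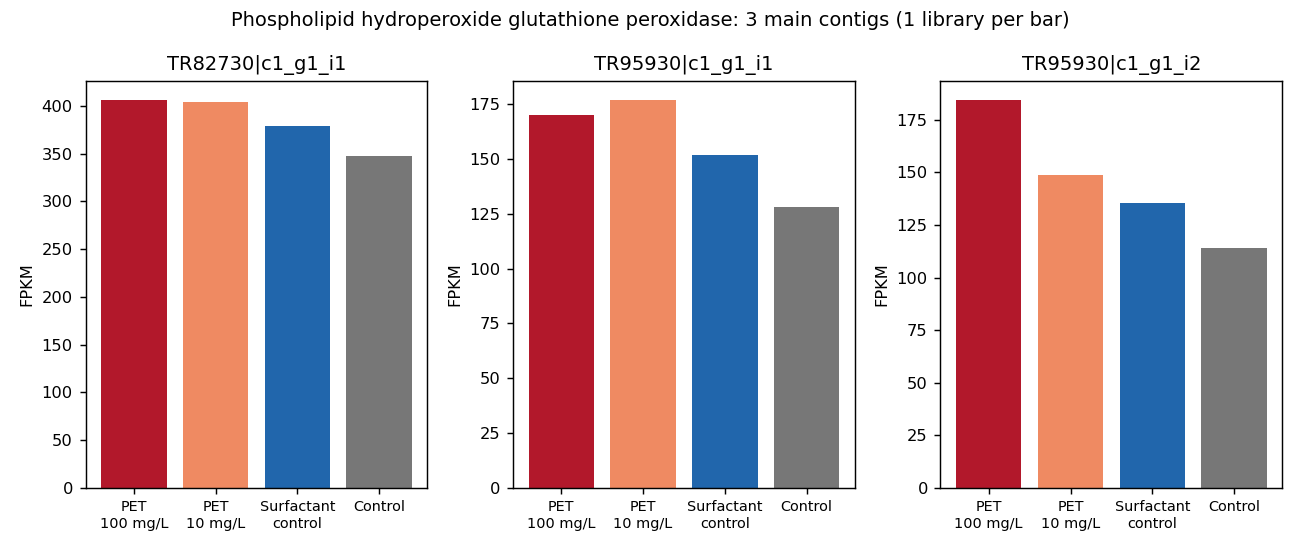
FPKM of the 3 main contigs of phospholipid hydroperoxide glutathione peroxidase, 1 bar per library, with axes from 0. In each contig the bars of PET 100 mg/L and PET 10 mg/L are taller than that of the surfactant control, and the control is the shortest.

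The summed liver markers had the same order of libraries as GPX4, though not every name did. The 7 names (such as serotransferrin-1, fibrinogen gamma chain and vitronectin) summed to 1465 FPKM at PET 100 mg/L, 1219 at PET 10 mg/L, 1162 in the surfactant control and 1041 in the control, and all 7 were above 0 in every library. Serotransferrin-1 made up most of the sum, at 1086, 889, 866 and 784 FPKM, while the fibrinogen gamma chain, at 185, 149.9, 157 and 125 FPKM, was lower at PET 10 mg/L than in the surfactant control. Prothrombin and the fibrinogen alpha chain matched no name and were not analysed here. Of the 6 that passed the filter, 5 were above the surfactant control at PET 100 mg/L, and the median ratio was 0.31 (log2). The other, 4-hydroxyphenylpyruvate dioxygenase-like protein, was at 2.96 against 3.28 FPKM. It matched the list only through the opening words of 4-hydroxyphenylpyruvate dioxygenase. The part of the liver markers in the GPX4 values was not tested. Red blood cell markers summed to 2871, 2725, 2597 and 2399 FPKM in the same order of libraries, also highest at PET 100 mg/L. Hemoglobin embryonic subunit alpha made up most of this sum, at 2522, 2363, 2145 and 2034 FPKM. Hemoglobin subunit alpha-1 had another order, at 280, 294, 390 and 293 FPKM. Of the 6 red blood cell names, 3 were above the surfactant control at PET 100 mg/L, and their part was not tested either. Exocrine pancreas markers also summed in the order of GPX4, to 22256, 21058, 20688 and 20389 FPKM, though not every name had it. Trypsin-1, the largest, had this order, at 7445, 7188, 7081 and 6884 FPKM, as did trypsin-3. Elastase-1 had another order, at 3037, 2643, 2377 and 2620 FPKM, and chymotrypsinogen 2 ascended, at 730, 783, 829 and 993. Of the 11 pancreas names past the filter, 9 were above the surfactant control at PET 100 mg/L, and their part was not tested. Over all names past the filter, 64.2% were above it. The 2 remaining sums were lowest at PET 100 mg/L and highest in the surfactant control. Skeletal muscle markers summed to 19910, 20207, 21828 and 21008 FPKM, and epidermis markers to 6199, 7207, 7686 and 6925, in the same order of libraries. The largest muscle names did not share the order of their sum. Parvalbumin beta was lowest in the control, at 10608, 10155, 11414 and 9880 FPKM. Creatine kinase M-type was highest there, at 6977, 7526, 7681 and 8402 FPKM. Keratin, type I cytoskeletal 13 made up most of the epidermis sum, at 6191, 7195, 7676 and 6917 FPKM, while envoplakin had another order, at 5.26, 8.36, 5.20 and 5.49.

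Glutathione peroxidase 1, the cytosolic enzyme for soluble peroxides, was at 116, 121, 114 and 106 FPKM in PET 100 mg/L, PET 10 mg/L, surfactant control and control. It was highest at PET 10 mg/L, and the control was again the lowest. Glutathione peroxidase 6 stayed under 1 FPKM, at 0.78, 0.24, 0.40 and 0.53.

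Peroxiredoxin-5, which reduces peroxides in mitochondria and peroxisomes, was at 178 FPKM at PET 100 mg/L, 154 at PET 10 mg/L, 147 in the surfactant control and 155 in the control. PET 100 mg/L stood above the other 3 libraries, with a log2 ratio of 0.28 to the surfactant control and 0.20 to the control. Among members with at least 10 FPKM none had a larger ratio over the surfactant control at PET 100 mg/L; over the untreated control, GPX4 (0.37), selenoprotein Pb (0.37) and selenoprotein T1a (0.24) did. Peroxiredoxin-1, the abundant cytosolic form, showed no such difference, at 53.7, 47.8, 53.7 and 49.1 FPKM in the same order of libraries.

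Sulfiredoxin-1 (SRXN1), which repairs over-oxidised peroxiredoxins and is a known NRF2 target in mammals, was low but ordered. Its level was 2.04 FPKM at PET 100 mg/L, 1.69 at PET 10 mg/L, 1.36 in the surfactant control and 0.94 in the control. The log2 ratio to the surfactant control was 0.45 at PET 100 mg/L and 0.24 at PET 10 mg/L, both under 1.5-fold, and that of the surfactant control to the control was 0.37. Against the untreated control it was past 1.5-fold in both PET libraries, at 0.82 and 0.60. Its 2 contigs did not share this order: the lower one was at 0.74, 0.23, 0 and 0.61 FPKM, and the higher one at 1.30, 1.46, 1.36 and 0.33. In the higher contig alone the log2 ratios to the surfactant control were -0.047 and 0.076, so the order among the 3 libraries that received fibres or surfactant rested on the lower contig.

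The thioredoxin system had 14 names, 12 of them past the filter, and its sum was level across libraries. It came to 349.9 FPKM at PET 100 mg/L, 362 at PET 10 mg/L, 357 in the surfactant control and 362 in the control. Several names of this group belong to proteins with other tasks, such as thioredoxin-like protein 4B, a splicing protein, and thioredoxin-interacting protein, which binds and inhibits thioredoxin and is known to respond to glucose.

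Thioredoxin-interacting protein (TXNIP) was the highest of the group. It was at 62.7 FPKM at PET 100 mg/L, 64.1 at PET 10 mg/L, 67.0 in the surfactant control and 79.4 in the control. This was the ascending counterpart of the GPX4 order, and most of the distance lay between the libraries without fibres, with a log2 ratio of -0.24 for surfactant control over control, against -0.10 and -0.06 for the PET libraries over the surfactant control. TXNIP was the only member past the filter to ascend strictly in that order, and only in its sum. Its main contigs were at 44.9, 43.05, 47.7 and 55.7 FPKM and at 16.5, 19.4, 18.15 and 21.7 FPKM, each highest in the control. Descending strictly were GPX4, selenoprotein T2, sulfiredoxin-1, thioredoxin-like protein AAED1 and glutaredoxin domain-containing cysteine-rich protein 2. The share of all names with either order was not counted, so neither order can be called particular to the members.

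Mitochondrial thioredoxin (TXN2) was the steadiest member with at least 10 FPKM, at 57.5, 58.6, 60.1 and 57.1 FPKM in PET 100 mg/L, PET 10 mg/L, surfactant control and control. Beneath that sum a minor contig, TR96900|c0_g1_i2, was at 1.95, 2.53, 4.29 and 5.97 FPKM in the same order, lowest at PET 100 mg/L. The main contig was at 55.6, 55.0, 55.4 and 50.9 FPKM. The minor contig's log2 ratios to the surfactant control were -0.97 and -0.66, while the sum's were -0.06 and -0.04.

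Thioredoxin reductases restore thioredoxin with NADPH. Thioredoxin reductase 3 was at 35.1 FPKM at PET 100 mg/L, 37.9 at PET 10 mg/L, 40.6 in the surfactant control and 39.6 in the control. At PET 100 mg/L its log2 ratio over the surfactant control was -0.20, as was that of thioredoxin-like protein 1, a protein bound to the proteasome, at 43.9, 51.4, 50.5 and 45.7 FPKM. The contigs of thioredoxin reductase 3 differed from each other: TR111969|c0_g1_i2 was at 12.9, 21.5, 17.4 and 18.9 FPKM and TR111969|c0_g1_i1 at 22.2, 16.4, 23.2 and 20.7. Thioredoxin reductase 2 of mitochondria was at 6.97, 5.79, 6.33 and 6.84 FPKM. Thioredoxin reductase 1 was listed at 0 except in the surfactant control, at 1.92.

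Among the other thioredoxin names, thioredoxin domain-containing protein 17, a small disulfide reductase of the cytosol, had 34.6 FPKM at PET 100 mg/L, 35.8 at PET 10 mg/L, 29.1 in the surfactant control and 33.1 in the control. Here the surfactant control was the low library, so the ratios to it (0.25 and 0.30) exceeded those to the untreated control (0.06 and 0.11). Thioredoxin-related transmembrane protein 2-B of the endoplasmic reticulum was at 31.2, 31.2, 27.6 and 28.8 FPKM, and thioredoxin domain-containing protein 15 at 23.0, 22.8, 20.4 and 23.2. Both were lowest in the surfactant control as well. Thioredoxin domain-containing protein 9 was at 44.1, 42.7, 44.4 and 39.3 FPKM and thioredoxin-like protein 4B at 6.27, 6.77, 5.76 and 6.19. Thioredoxin-like protein AAED1 was at 2.79, 2.21, 2.05 and 1.87 FPKM.

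Thioredoxin domain-containing protein 5, a disulfide isomerase of the endoplasmic reticulum, was the only one of the 28 members past the filter to be at least 1.5-fold higher at PET 10 mg/L than in the surfactant control. It was at 1.28, 1.96, 1.13 and 1.16 FPKM in PET 100 mg/L, PET 10 mg/L, surfactant control and control, a log2 ratio of 0.59. The difference came from TR53406|c0_g2_i1, at 0, 1.75, 0.62 and 0.48 FPKM. Scaled to depth, these values stand as 0, 3.06, 1.01 and 1.00 times the smallest, close to whole numbers. Thioredoxin H-type, a plant protein name, was at 0.45 and 0.42 FPKM in the PET libraries and listed at 0 in both others.

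Glutaredoxins use glutathione to reduce protein disulfides. Glutaredoxin-1 was at 137 FPKM at PET 100 mg/L, 122 at PET 10 mg/L, 137 in the surfactant control and 132 in the control, lowest at PET 10 mg/L. Glutaredoxin 3, which serves iron-sulfur clusters, was at 27.0, 27.6, 26.5 and 29.6 FPKM. Mitochondrial glutaredoxin-2 was under the filter at 0.41, 1.16, 0 and 0.33. The cysteine-rich proteins with a glutaredoxin domain, known from sensory hair cells in mammals, were low: GRXCR2 at 1.5, 1.25, 1.18 and 1.12 FPKM and GRXCR1 at 0.23, 0.31, 0.46 and 0.19.

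Glutamate-cysteine ligase takes part in the synthesis of glutathione, and glutathione reductase recycles it. Glutathione reductase was at 9.84 FPKM at PET 100 mg/L, 10.4 at PET 10 mg/L, 11.1 in the surfactant control and 10.1 in the control. The catalytic subunit of the ligase (GCLC) was listed at 0 at PET 100 mg/L and was at 1.88, 2.93 and 2.35 FPKM in PET 10 mg/L, surfactant control and control. Each of its 3 contigs was listed at 0 at PET 100 mg/L and in 1 other library. The regulatory subunit (GCLM) was above 0 only in the control, at 0.34. A separate contig named glutathione reductase has the bacterial gene symbol gor and was at 1.72, 0, 1.75 and 0 FPKM in the 4 libraries.

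Heme oxygenase and quinone reductase 1 were scarcely detected. Heme oxygenase (hmox), which breaks down haem and is strongly induced by oxidative stress in vertebrates, was at 0.33, 0.27, 0.25 and 0.25 FPKM in PET 100 mg/L, PET 10 mg/L, surfactant control and control. The constitutive heme oxygenase 2 was at 3.64, 2.54, 3.11 and 3.90 FPKM, highest in the control. NAD(P)H dehydrogenase [quinone] 1 (NQO1) was at 0.40, 0, 0.40 and 0.32 FPKM. Its 3 values above 0 are equal after scaling to depth, at 1.01, 1.00 and 1.02 times the smallest. Values this low, from 1 library per group, cannot show whether hmox, NQO1 or GCLM differed.

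Selenoproteins held 173 FPKM at PET 100 mg/L, 155 at PET 10 mg/L, 153 in the surfactant control and 147 in the control. Selenoprotein T1a, an oxidoreductase of the endoplasmic reticulum, was at 88.9, 75.8, 76.8 and 75.1 FPKM, with PET 100 mg/L above 3 near-equal libraries. Selenoprotein T2 was at 64.4, 60.2, 58.0 and 57.0 FPKM, in the GPX4 order. Selenoprotein Pb, the zebrafish form of the plasma selenium protein that lacks the selenocysteine-rich tail, was at 17.9, 15.1, 16.4 and 13.8 FPKM. All 3 were highest at PET 100 mg/L and lowest in the control, and at PET 100 mg/L their log2 ratios over the surfactant control were 0.21, 0.15 and 0.12. The median over all names for that ratio was itself 0.08. Selenoproteins O, N, K and T were under the filter, at most 1.12, 1.71, 0.51 and 0.63 FPKM in any library.

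Counted at 1.5-fold, PET 100 mg/L differed from the surfactant control in 0 of the 28 members upward and 2 downward, catalase and GCLC, the second through its listed 0. Over all 6457 names past the filter, 7.48% were higher and 4.1% lower. At 2-fold the members' counts were the same, beside 2.94% and 1.95% of all names. Among the 19 members with at least 10 FPKM none was past 1.5-fold either way, beside 1.23% and 0.856% of all names at that level. The members' median log2 ratio was 0.12 and that of all names 0.08, and 19 of 28 members were above 0, beside 64.2% of all names. At 10 FPKM or more the order of the medians turned, to 0.022 for the members and 0.059 for all names.

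For PET 10 mg/L against the surfactant control, 1 of the 28 was higher (thioredoxin domain-containing protein 5) and 1 lower (catalase), beside 6.46% and 4.51% of all names. At 2-fold the counts were 0 and 1, beside 2.93% and 2.04%, and with at least 10 FPKM 0 and 0 at 1.5-fold, beside 1.19% and 0.782%. The members' median was 0.0025 and that of all names 0.028, and 14 of 28 members were above 0, beside 55.4%. For the surfactant control against the control, 1 was higher (catalase) and 0 lower, beside 5.28% and 4.71% of all names. At 2-fold these counts did not change, beside 2.51% and 2.04%, and with at least 10 FPKM they were 0 and 0 at 1.5-fold, beside 0.67% and 0.633%. The medians were 0.053 for the members and 0 for all names. Against the untreated control, PET 100 mg/L had 1 member higher (sulfiredoxin-1) and 1 lower (GCLC), beside 7.73% and 3.28% of all names. PET 10 mg/L had 1 higher (sulfiredoxin-1) and 0 lower than the untreated control, beside 6.29% and 3.78%. The 2 PET comparisons share their surfactant library, and catalase appears in all 3 counts with surfactant control through its high value there.

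**Figure D4:**
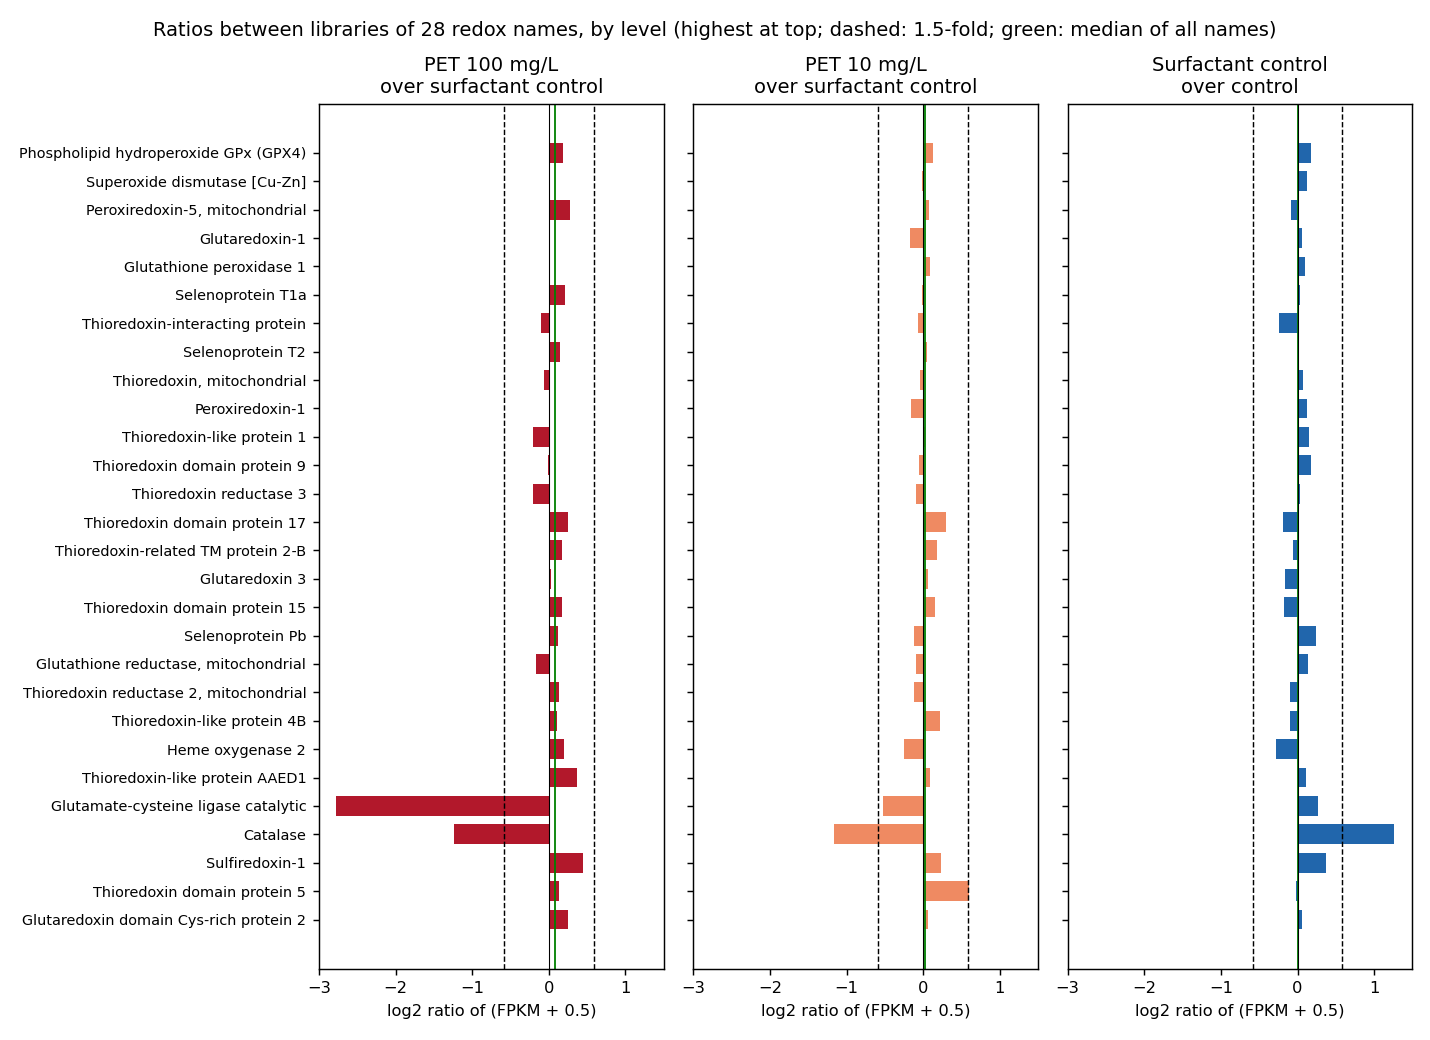
Log2 ratios of FPKM plus 0.5 for the 28 redox names in 3 comparisons, ordered by level; dashed lines mark 1.5-fold and green lines the median of all 6457 names. Bars past the dashed lines belong to names under 3 FPKM on average: catalase in all 3 panels, GCLC in the left panel (listed at 0 at PET 100 mg/L, so that the length of its bar is set by the pseudocount) and thioredoxin domain-containing protein 5 in the middle one.

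The control genes of the NRF2 pathway were low. KEAP1 was at 6.41 FPKM at PET 100 mg/L, 6.62 at PET 10 mg/L, 5.48 in the surfactant control and 7.46 in the control. NRF2 itself (NFE2L2) was at 1.56, 1.28, 2.66 and 2.38 FPKM, and its relative NFE2L1 at 2.51, 2.03, 1.14 and 1.51. The log2 ratios to the surfactant control were -0.62 and -0.83 for NRF2 and 0.88 and 0.63 for NFE2L1 at PET 100 and 10 mg/L. Each of the 4 ratios was past 1.5-fold, on values under 3 FPKM. Over the untreated control only NRF2 at PET 10 mg/L was past it, at -0.69; the others were -0.48 for NRF2 at PET 100 mg/L and 0.58 and 0.33 for NFE2L1. The main contigs of NRF2 ran opposite ways, at 0.36, 0.55, 1.43 and 1.55 FPKM in TR102317|c0_g1_i1 and 0.92, 0.73, 0.66 and 0.48 FPKM in TR102317|c0_g1_i2. The small partner protein MafG was at 2.60, 2.64, 1.78 and 2.09 FPKM. The transcription regulator BACH1, under the filter, was at 0.23, 1.57, 0.04 and 0 FPKM. MafF, MafK and sequestosome-1 matched no name and were not analysed here. Of the 4 names of this list past the filter, 1 was thus higher and 1 lower than the surfactant control at each PET concentration. Over all names the shares higher and lower were 7.48% and 4.1% at PET 100 mg/L and 6.46% and 4.51% at PET 10 mg/L. The list's median was 0.33 at PET 100 mg/L, 0.36 at PET 10 mg/L and -0.24 for surfactant control over control.

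Among enzymes that use glutathione, the 2 glutathione S-transferases Mu 1 and omega-1 were lower in both PET libraries. Glutathione S-transferase Mu 1 was at 308 FPKM at PET 100 mg/L, 337 at PET 10 mg/L, 556 in the surfactant control and 459 in the control. Glutathione S-transferase omega-1 was at 42.2, 39.5, 66.4 and 54.8 FPKM. In both, the PET libraries lay below both libraries without fibres, with log2 ratios to the surfactant control of -0.85 and -0.72 for Mu 1 and -0.65 and -0.74 for omega-1. Against the untreated control, the ratios were -0.58 and -0.37 at PET 100 mg/L and -0.45 and -0.47 at PET 10 mg/L, all under 1.5-fold. These 2 were the only names of 9 past the filter that were 1.5-fold lower than the surfactant control at either concentration, and 0 were higher. Over all names, 4.1% and 4.51% were lower at PET 100 and 10 mg/L, and 7.48% and 6.46% higher. Among names with at least 10 FPKM, where both enzymes lie, 0.856% and 0.782% were lower and 1.23% and 1.19% higher.

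Glutathione S-transferase A4, which clears lipid aldehydes in mammals, had the order of the GPX4 sum except that the PET libraries were equal, at 764, 765, 686 and 624 FPKM. Glutathione S-transferase A, over 4 contigs, was at 519, 473, 591 and 523 FPKM, highest in the surfactant control. The list's median was -0.07 at PET 100 mg/L, -0.10 at PET 10 mg/L and 0.18 for surfactant control over control. Glutathione synthetase matched no name and was not analysed here.

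**Figure D5:**
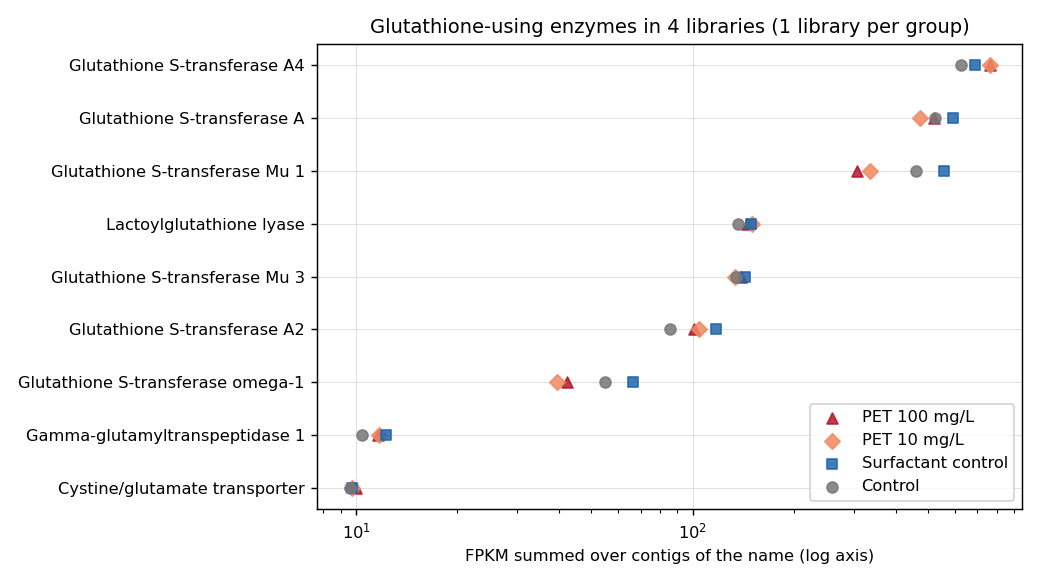
FPKM (log axis) of the 9 names of the list of glutathione synthesis and use with a mean of at least 1 FPKM, 1 symbol per library. For glutathione S-transferases Mu 1 and omega-1 the PET symbols lie left of both others, at 308 and 337 against 556 and 459 FPKM for Mu 1; for A4 they lie to the right.

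NADPH supply, which both reductase systems draw on, was led by mitochondrial isocitrate dehydrogenase at 557, 586, 619 and 588 FPKM in PET 100 mg/L, PET 10 mg/L, surfactant control and control. NADP-dependent malic enzyme was at 43.7, 50.3, 53.1 and 48.9 FPKM, and transketolase at 4.16, 4.58, 6.63 and 5.61. All 3 were lowest at PET 100 mg/L and highest in the surfactant control. Of the 5 names past the filter, 1 was higher and 1 lower than the surfactant control at PET 100 mg/L, beside 7.48% and 4.1% of all names. At PET 10 mg/L 1 was higher and 0 lower, beside 6.46% and 4.51%. The higher one, isocitrate dehydrogenase [NADP] with the bacterial gene symbol icd, was under 3 FPKM, at 2.21, 2.60, 1.17 and 0.67. It passed the filter only through the PET libraries, so its place in the count follows from the values that are counted. Its highest contig averaged 0.47 FPKM. Between surfactant control and control 1 was higher, NAD(P) transhydrogenase of mitochondria, at 3 against 0.99 FPKM, beside 5.28% of all names. The median of the list was -0.15, -0.08 and 0.22 for PET 100 mg/L and PET 10 mg/L over surfactant control and surfactant control over control.

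The selenium and methionine repair lists were level. Selenium-binding protein 1 was at 169, 169, 163 and 155 FPKM, and selenide, water dikinase 2, which makes the selenium donor for selenocysteine, at 70.2, 75.1, 72.0 and 70.7, in PET 100 mg/L, PET 10 mg/L, surfactant control and control. Methionine-R-sulfoxide reductase B3 was at 49.3, 49.8, 54.9 and 55.1 FPKM and mitochondrial peptide methionine sulfoxide reductase at 29.1, 26.6, 25.2 and 24.4. None of these 4 names, the only ones past the filter in the 2 lists, was 1.5-fold apart in the 3 comparisons. The medians for PET 100 mg/L, PET 10 mg/L and surfactant control, each over its reference, were 0.0085, 0.058 and 0.047 in the selenium list and 0.024, -0.033 and 0.022 in the repair list.

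Gene ontology terms were read from the same annotation that holds the protein names. Terms close to the words of the rule, such as selenium binding and cell redox homeostasis, follow from how the members were chosen. Of the 43 names, 39 carry a term. Mitochondrion is given for 10, of which 9 passed the filter, beside 4.97% of all names, and these 9 include the 3 highest members, GPX4, sod1 and peroxiredoxin-5. Cell redox homeostasis is given for 20, beside 0.395% of all names, and response to oxidative stress for 12, beside 0.572%. Selenium binding is given for 5 members, beside 0.0728% of all names, and the 4 past the filter (GPX4 and selenoproteins T1a, T2 and Pb) were each highest at PET 100 mg/L, as were 41 percent of all names with at least 10 FPKM.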

How the data were processed

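Whole-larva RNA of 4 groups, 1 library each, was analysed. The deposited values are the authors' FPKM, corrected for contig length and library size; the file headers name 1 such column for each library. The headers abbreviate the surfactant control to its initials and spell PET as "pel" in the 100 mg/L column; each column was matched to the only sample title it fits, and every comparison rests on that reading. RSEM, Bowtie and bcl2fastq 2.20.0.422 stand in the submitters' processing notes; no sequence was used. RSEM shares fragments among similar contigs, so single contigs of a name are less certain than their sum.

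Members were found by the opening words of the contig's protein description. FPKM was summed over contigs of the same protein name, leaving off the database match. Ratios are log2 of FPKM plus 0.5, which understates ratios of low values. Names averaging 1 FPKM or more across the 4 libraries were counted; the counts are of ratios of at least 1.5-fold. The surfactant control is the reference of the fibre libraries, and the untreated control that of the surfactant control.

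Named members are the 4 highest of each role, those past 1.5-fold, and, whatever their values, these (heme oxygenase, quinone reductase, both glutamate-cysteine ligase subunits, sulfiredoxin, thioredoxin reductases, peroxiredoxin-1, thioredoxin-interacting protein); from each pathway list, the 3 highest and those past 2-fold. The other members and pathway genes described were added after their values were seen. Members and lists were chosen with earlier results of these data known. Counting was tested on simulated data. Alternatives were the pseudocount (1 or 0.1), the filter (none, or 10 FPKM), the highest contig in place of the sum, median-of-ratios scaling, 2-fold, the untreated control as reference and, chosen after seeing the data, names kept apart by database match. Python 3.11.15, numpy 2.4.6, pandas 2.3.3 and matplotlib 3.10.9 were used.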

Additional observations from a re-analysis of the deposited data

How the results depend on the processing

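Depth limits the low members: of the 83 contigs, 48 averaged less than 1 FPKM, and 9 had a value above 0 in a single library. No paired analysis was possible because each group holds 1 library, and for the same reason no replicate could be left out. Members' medians moved by at most 0.1 under every alternative tried, but the medians themselves were about that small or smaller. For PET 100 mg/L over surfactant control the median of 0.12 fell to 0.022 without the filter or with at least 10 FPKM. With median-of-ratios scaling it was 0.035. For PET 10 mg/L the median of 0.0025 became -0.020 with at least 10 FPKM and -0.026 with that scaling. In the comparisons as reported no member with at least 10 FPKM was past 1.5-fold. The counts changed as follows, and the cause was not tested unless stated. Without the filter, which lets in the 15 lowest names, PET 100 mg/L over surfactant control had 2 higher and 5 lower, PET 10 mg/L 5 higher and 4 lower, and surfactant control over control 4 higher and 2 lower. With at least 10 FPKM all 6 counts were 0, since fewer names are counted. With the highest contig in place of the sum, the count lower at PET 100 mg/L was 0, and PET 10 mg/L had 0 either way. The highest contigs of catalase, GCLC and thioredoxin domain-containing protein 5 averaged 0.84, 0.81 and 0.71 FPKM, under the filter, so these names were no longer counted. Over the surfactant control these contigs had log2 ratios of -1.29, -2.51 and -1.16 at PET 100 mg/L. At PET 10 mg/L the ratios were -0.30, -2.51 and 1.01. The GCLC contig was listed at 0 in both PET libraries, and that of thioredoxin domain-containing protein 5 at PET 100 mg/L. The size of the ratios -2.51 and -1.16 is therefore set by the pseudocount and is no measure of a fold. With the untreated control as reference, PET 100 mg/L had 1 higher (sulfiredoxin-1) and 1 lower (GCLC), and PET 10 mg/L had 0 lower. Catalase then turned, to 0.019 at PET 100 mg/L and 0.094 at PET 10 mg/L, because its high value is in the surfactant control. In that setting 15 of 46 log2 ratios of named members changed sign, those of catalase included. Besides the 2 of catalase, 26 moved by more than 0.1. Median-of-ratios scaling changed the sign of 5 of 69 such ratios, and the highest contig that of 5 of 57. The count higher at PET 10 mg/L was 0 with a pseudocount of 1, with median-of-ratios scaling and at 2-fold, and the count lower there was 2 with a pseudocount of 0.1. Kept apart by database match, an alternative chosen after seeing the data, the counts lower were 0 at both PET concentrations, and surfactant control over control had 0 higher and 1 lower.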

Other observations

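Among sources of reactive oxygen, dual oxidase 1, which releases hydrogen peroxide at epithelial surfaces, was at 3.92 FPKM at PET 100 mg/L, against 0.31 at PET 10 mg/L, 0.34 in the surfactant control and 0.31 in the control. All but 0.15 FPKM of the first value came from the contig TR320|c0_g1_i1, at 3.77 FPKM at PET 100 mg/L and listed at 0 in the other libraries, so the value rests on 1 contig of 1 library. With a mean of 1.22 FPKM, dual oxidase 1 passed the filter only through PET 100 mg/L, being under 1 FPKM elsewhere. Its place in the count thus follows from the same value that is counted. It was the only name of the 3 past the filter in that list at least 1.5-fold from the surfactant control at either concentration. Over all names, 7.48% were higher and 4.1% lower at PET 100 mg/L, and 6.46% and 4.51% at PET 10 mg/L. Cytochrome b-245 light chain, a subunit of the phagocyte oxidase, was at 26.1, 33.4, 25.5 and 24.8 FPKM in PET 100 mg/L, PET 10 mg/L, surfactant control and control, and neutrophil cytosol factor 4 at 9.50, 7.54, 8.19 and 9.01. The list's medians were 0.20 and -0.05 for PET 100 and 10 mg/L over surfactant control and 0.04 for surfactant control over control.

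Ferritins store iron, which can otherwise feed radical formation. The lower subunit was at 87.3, 75.7, 70.4 and 70.9 FPKM in PET 100 mg/L, PET 10 mg/L, surfactant control and control, and the heavy subunit at 32.1, 30.2, 29.8 and 30.5. Flavin reductase (NADPH), an enzyme of biliverdin breakdown, was at 75.3, 76.0, 78.3 and 72.4 FPKM. The name middle subunit ran the other way to the lower one, at 4.5, 4.72, 7.26 and 8.32 FPKM. The liver middle subunit, a second name with the same gene symbol, did not share this order. It was highest at PET 100 mg/L, at 8.3, 3.46, 5.92 and 5.3 FPKM. Of the 6 names of this list past the filter, 1 was at least 1.5-fold lower than the surfactant control at PET 100 mg/L (the middle subunit, -0.63), beside 4.1% of all names. At PET 10 mg/L 1 was lower (the liver middle subunit, -0.70), beside 4.51%. At either concentration 0 were higher, beside 7.48% and 6.46%. In the surfactant control 1 was lower than in the control, beside 4.71%. It was ferritin-4, chloroplastic, a plant protein name, at 0.85, 0.97, 1.03 and 2.03 FPKM. With a mean of 1.22 FPKM it passed the filter only through the control, so its place in the count follows from the value that is counted. The medians were 0.023, -0.051 and -0.020.

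The other marker lists, in the order PET 100 mg/L over surfactant control, PET 10 mg/L over surfactant control and surfactant control over control, had median log2 ratios of 0.088, -0.043 and -0.077 for red blood cells, -0.12, -0.040 and 0.13 for skeletal muscle, 0.14, 0.016 and -0.029 for exocrine pancreas and -0.31, -0.093 and 0.15 for epidermis. For liver the 3 medians were 0.31, 0.12 and 0.16.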
